A study of Mus musculus with 6 samples.

Results

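Interferon response genes are genes that cells switch on when interferons bind their receptors. A set of 33 such genes was taken by gene symbol, and 32 of them had a row of their own among the 21572 gene symbols in the files. The remaining gene, Ifi47, was listed only in a joint entry with Olfr56, which is reported apart. Levels are given in FPKM, fragments scaled to transcript length and to the size of the library. Of the 32 genes, 30 reached a mean of 0.5 FPKM over all libraries and were tested among 12247 genes. Ifi44 and Herc6 stayed under that mean and were not tested. By role, the 30 tested genes comprised 5 transcription factors, 6 GTPases, 8 direct antiviral proteins, 4 sensors and ubiquitin-like conjugation proteins, 3 ADP-ribosylation proteins and 4 others.

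Poly(A) RNA of mouse soleus, a slow postural muscle of the lower leg, was sequenced in 6 libraries, 2 in each of 3 groups. All came from adult C57BL/6 mice. The groups were innervated wild-type (WT) muscle, WT muscle 3 days after denervation (loss of its nerve supply), and muscle 3 days after denervation labelled Dach2-/-/Hdac9-/-, a double knockout of a transcriptional cofactor and a class II histone deacetylase. Innervated double-knockout muscle was not analysed here. The labels do not say whether the 2 libraries of a group came from different animals, whether the muscle was pooled, or how the alleles were made, so the tests measure the spread between libraries. Replicates 1 and 2 below are names in deposit order.

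Interferons of type I, the alpha and beta family, signal through the receptor chains Ifnar1 and Ifnar2 and the kinases Jak1 and Tyk2. They activate a complex that includes Stat2 and Irf9 and binds the interferon-stimulated response element (ISRE). Interferon gamma, the type II interferon, signals through Ifngr1 and Ifngr2 with Jak1 and Jak2, and its targets can carry a gamma-activated site (GAS). The induced proteins sense viral nucleic acid, block entry and replication, restrict intracellular microbes and feed back on the pathway, and many are also made at a low level in uninfected tissue.

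The binding elements can be read in the promoters of these genes. RefSeq promoters of the GRCm38.p6 assembly, from 250 bases before to 50 after a gene's start, were present for 27 of the 33 genes. The ISRE was searched on both strands as GAAA, any 2 bases and a second GAAA, and the GAS as TTC, any 3 bases and GAA, which reads the same on both strands. The 2 motifs can overlap. An ISRE match lay in 14 of the 27 promoters (51.9%), against 3.99% of all 27025 genes with such a promoter. A GAS match lay in 8 of 27 (29.6%), against 9.55% of those genes. An ISRE match lay in 5 of 9 genes that fell in denervated WT in the test below, and in 9 of 15 tested genes that did not pass. For the GAS the counts were 5 of 9 and 3 of 15, and no test compared these counts. The windows below show the motif in capitals with 15 bases on each side, on the gene's own strand, for genes whose levels are described in the following paragraphs.
Isg15 ISRE, chr4:156200866-156200905 (- strand): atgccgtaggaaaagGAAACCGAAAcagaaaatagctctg
Bst2 ISRE, chr8:71537572-71537611 (- strand): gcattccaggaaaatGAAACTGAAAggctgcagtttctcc
Igtp ISRE, chr11:58199507-58199546 (+ strand): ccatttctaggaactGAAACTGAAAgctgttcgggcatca
Irgm2 ISRE, chr11:58214898-58214937 (+ strand): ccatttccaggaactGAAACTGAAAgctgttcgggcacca
Gbp3 ISRE, chr3:142559984-142560023 (+ strand): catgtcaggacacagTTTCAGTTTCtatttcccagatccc
Ifit1 ISRE, chr19:34640789-34640828 (+ strand): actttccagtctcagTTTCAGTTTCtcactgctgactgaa
Irf1 GAS, chr11:53769909-53769947 (+ strand): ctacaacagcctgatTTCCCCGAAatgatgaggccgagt
The Igtp and Irgm2 windows were identical at 38 of 40 bases, while their upstream sequences, aligned at that ISRE without gaps, were identical at 134 of 220. Each of these 2 windows, like the Bst2 window, also holds a whole GAS match that ends shortly before the ISRE in capitals. A match is a description of the letters and not a measured binding site, and these promoter coordinates belong to another assembly than the mm9 positions of the expression files.

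The 6 libraries held between 25529434 and 46305449 assigned fragments. Pearson's r between the 2 libraries of a group, across genes and on log2 CPM (counts scaled to library size), was 0.986 for innervated WT, 0.965 for denervated WT and 0.980 for the denervated muscle labelled double knockout. The slow-fibre genes Myh7 and Tnnt1 were abundant throughout, at 106 to 1700 FPKM and 1418 to 3401 FPKM. Fibre markers differed between the libraries of a group. Over 9 tested soleus fibre markers, log2 CPM of replicate 1 minus replicate 2 ran from -0.64 to -0.03 in innervated WT. The range was -0.09 to 2.01 in denervated WT and -0.83 to 1.33 in the muscle labelled double knockout. The skeletal actin gene Acta1 was listed at 0 in every library, so a listed 0 in these files can be a failed estimate. The libraries of innervated WT had Dach2 levels of 3.85 and 4.29 FPKM, those of denervated WT 0.520 and 0.536, and those labelled double knockout 0.961 and 0.681. The Hdac9 levels in the same order were 4.10 and 3.14, 1.83 and 0.285, and 0.534 and 0.182 FPKM. Neither gene was lower in both labelled knockout libraries than in both denervated WT libraries. Which part of each gene was deleted is not given in the sources used here, so gene-level values do not check the genotype, and the group is called by its label throughout.

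In innervated muscle the median of the 32 genes was 3.34 FPKM. Ifitm3, which blocks virus entry from endosomes, was the most abundant at 93.4 and 104 FPKM. Ifi35, Bst2, Irgm1 and Iigp1 followed with group means of 17.7, 16.3, 12.3 and 10.9 FPKM, and no other gene of the set reached 10 FPKM. Cxcl10, Zbp1, Herc6 and Ifi44 had means below 1 FPKM. The plot of FPKM by library shows that for most genes the innervated libraries hold the highest levels.

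**Figure D1:**
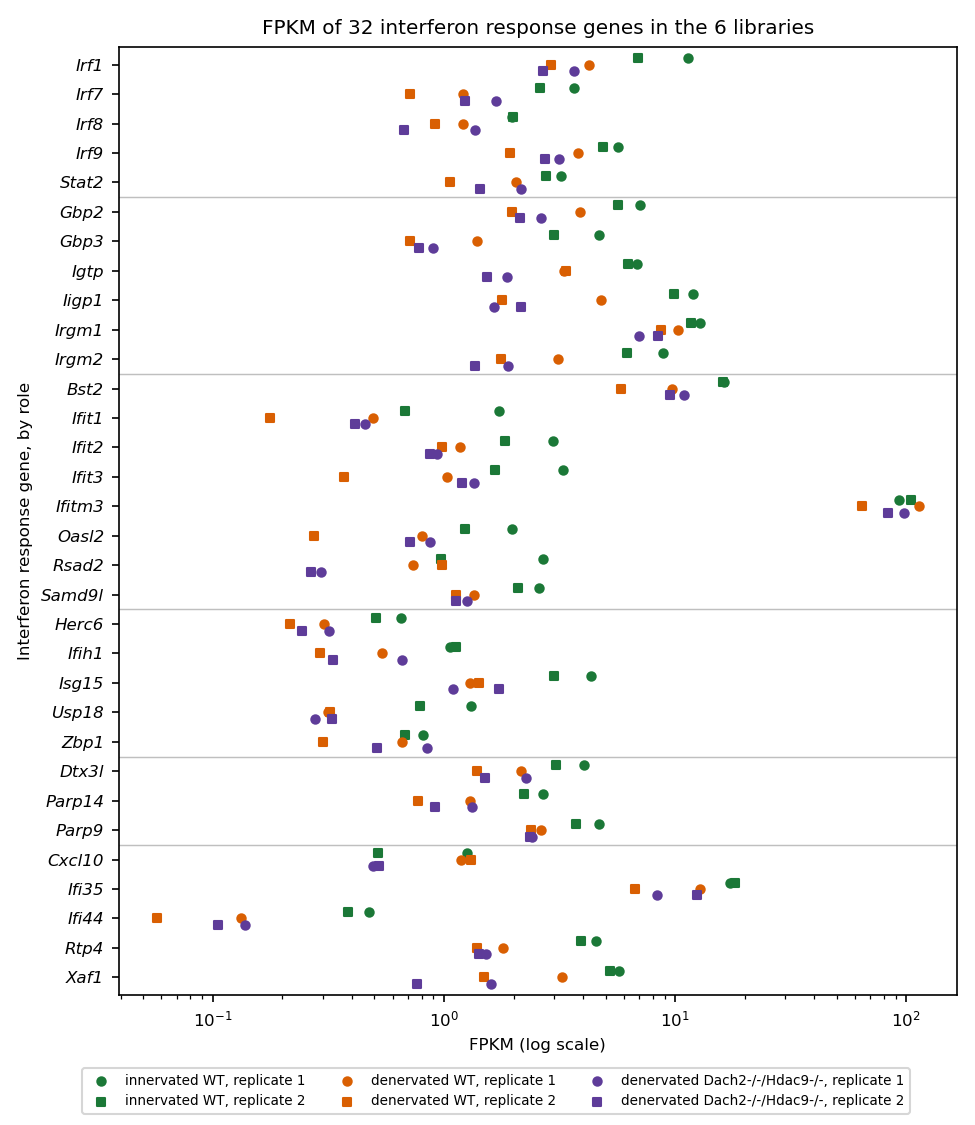
FPKM on a log scale (horizontal) of the 32 genes with a row of their own (vertical, by role), with 1 point per library and colours for the 3 groups. Innervated WT replicate 1 was the highest library for 25 of the 30 tested genes (not counted over all genes), and Ifitm3 stands apart at 64.2 to 113 FPKM.

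The first comparison asks how the set responded to loss of the nerve in WT muscle. After denervation of WT muscle, 14 of the 30 genes fell and 0 rose (edgeR quasi-likelihood test, adjusted p below 0.05). Among all 12247 genes, 14.3% fell and 14.4% rose. The median change of the 30 genes was -1.11 on the log2 scale, against 0.002 over all genes tested, and 29 of 30 changes were below 0, as were 49.8% of all changes. Both denervated libraries lay below both innervated libraries for 27 of 30 genes, against 35.5% of all genes, and above both for 0, against 35.1%. At an unadjusted p below 0.05, 22 of 30 were lower and 0 higher, against 21.6% and 22.2% of all genes. The 14 genes that fell did so by 1.64-fold (Parp9) to 3.51-fold (Gbp3), and 10 of them by at least 2-fold. The number of calls depended on single libraries: it was 0 without innervated replicate 1 and 0 without innervated replicate 2, where 9 and 20 genes were lower at an unadjusted p below 0.05 and the share of all genes that fell was 2.38% and 0.972%. It was 24 without denervated WT replicate 1, 5 without denervated WT replicate 2 and 9 without labelled knockout replicate 1, which enters through the shared estimate of spread, with 22.4%, 11.3% and 12.0% of all genes. In bulk RNA of a whole muscle, fewer cells of a type and less RNA per cell cannot be told apart.

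**Figure D2:**
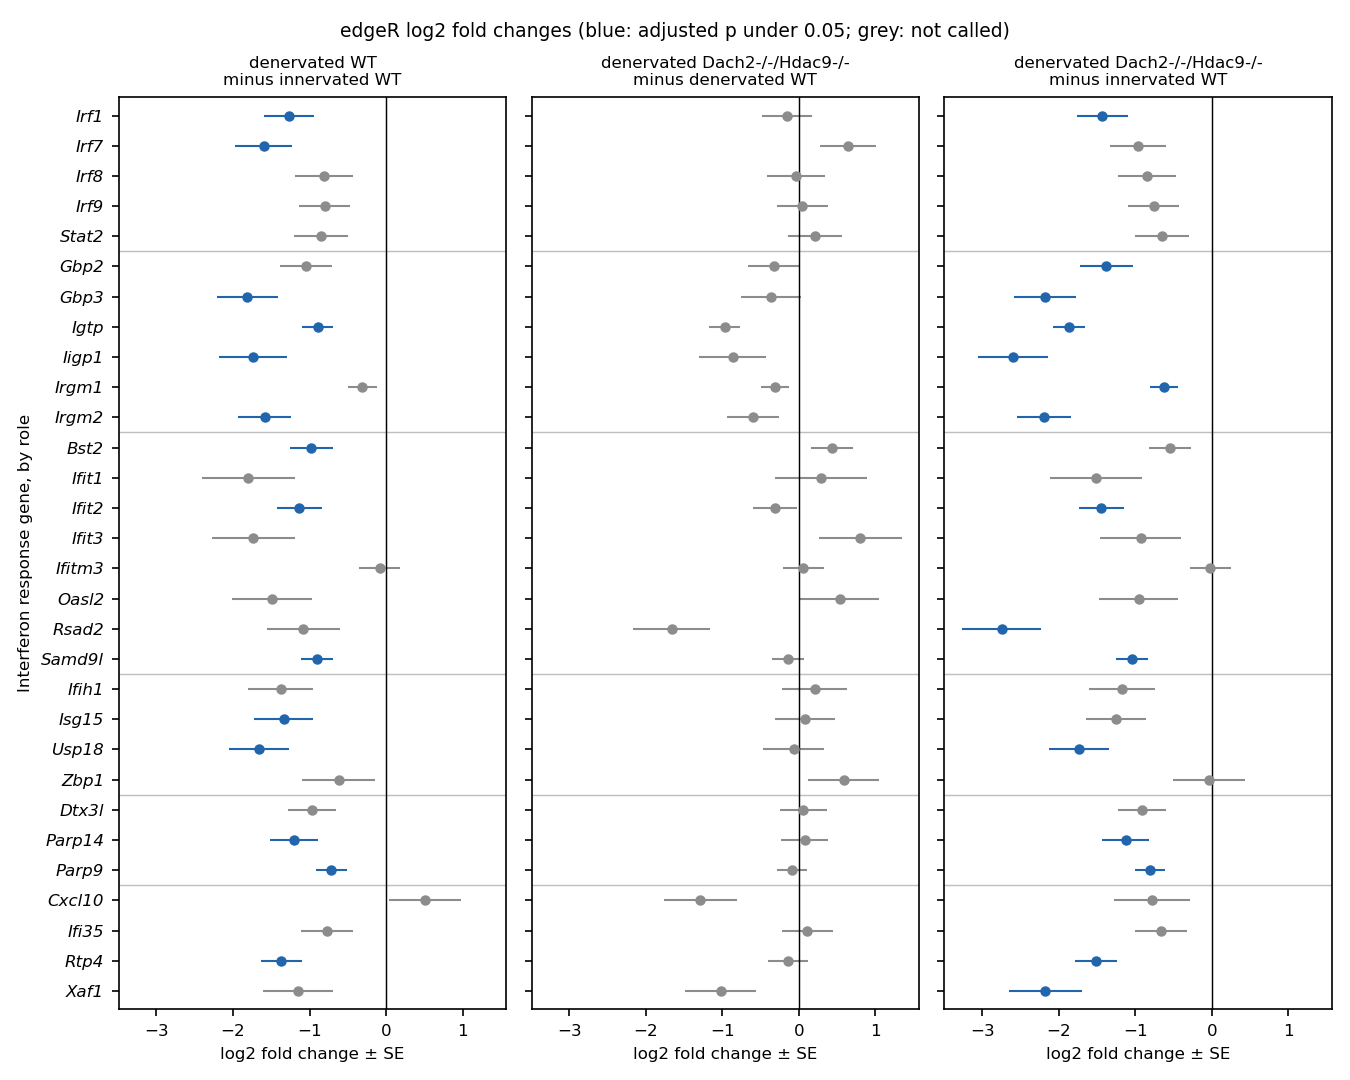
Log2 fold changes with their standard errors (horizontal) of the 30 tested genes (vertical, by role) in the 3 comparisons, blue where the edgeR adjusted p was below 0.05. In denervated against innervated WT 14 genes are blue and all lie below 0, and between the denervated groups no gene is blue.

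Among the transcription factors, Irf1 and Irf7 fell and Irf8, Irf9 and Stat2 did not pass the test. Irf1 (chromosome 11, 53583515 to 53591876 in mm9), a factor induced by interferon gamma whose promoter GAS is printed above, was at 11.3 and 6.88 FPKM in innervated muscle and at 4.24 and 2.91 after denervation. The groups did not overlap, and the change was -1.27 ± 0.33 (SE, log2; edgeR adjusted p = 0.0319). Irf7 (chromosome 7, 148449087 to 148452300), which drives interferon gene expression, went from 3.64 and 2.59 FPKM to 1.20 and 0.711. That is a 3.03-fold fall (log2 -1.60 ± 0.37, edgeR adjusted p = 0.0242). Irf9 and Stat2, partners in the complex that binds the ISRE, stood at -0.80 ± 0.33 and -0.85 ± 0.35, with edgeR adjusted p of 0.114 and 0.112. Irf8, a factor of the myeloid lineage, was at 1.97 and 1.98 FPKM and then at 1.21 and 0.914 (-0.81 ± 0.38, edgeR adjusted p = 0.148). For all 5 factors both denervated libraries were below both innervated libraries.

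The GTPases help to restrict pathogens inside vacuoles, and 4 of the 6 with a row of their own fell. Gbp3 (chromosome 3, 142223015 to 142236176), a guanylate-binding protein, was at 4.69 and 3.00 FPKM in innervated muscle and at 1.39 and 0.710 after denervation. Its change of -1.81 ± 0.39 was the most negative of the 30 genes (edgeR adjusted p = 0.0197). Its neighbour Gbp2 went from 7.02 and 5.65 FPKM to 3.89 and 1.97, which did not pass (-1.05 ± 0.34, edgeR adjusted p = 0.0596). Iigp1, an effector of the immunity-related GTPase family, was at 11.9 and 9.92 FPKM and then at 4.78 and 1.79 (-1.74 ± 0.44, edgeR adjusted p = 0.0300). The 2 denervated levels of Iigp1 differed more than 2-fold from each other, yet both were below the innervated range.

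Igtp, Irgm2 and Irgm1 belong to the regulatory branch of the immunity-related GTPases. Igtp (chromosome 11, 58013057 to 58021094) was at 6.84 and 6.23 FPKM in innervated muscle and at 3.31 and 3.37 after denervation (-0.89 ± 0.20, edgeR adjusted p = 0.0221). Irgm2, its neighbour (58028478 to 58036285), went from 8.86 and 6.20 FPKM to 3.12 and 1.77 (-1.59 ± 0.34, edgeR adjusted p = 0.0193). These related genes can share reads, and how such reads were assigned is not given in the sources used here, so their separate values are uncertain. Irgm1 was at 12.8 and 11.7 FPKM and then at 10.3 and 8.68, a change that did not pass (-0.31 ± 0.18, edgeR adjusted p = 0.241). The joint entry of Ifi47 and Olfr56 went from 2.68 and 2.60 FPKM to 1.71 and 1.24 (-0.79 ± 0.29, edgeR adjusted p = 0.0811).

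Of the 8 direct antiviral genes, Ifit2, Bst2 and Samd9l fell. Bst2, or tetherin, holds budding virus at the cell surface, and its 16.3 and 16.2 FPKM in innervated muscle compare with 9.69 and 5.82 after denervation (-0.98 ± 0.28, edgeR adjusted p = 0.0438). Samd9l, which restrains protein synthesis, went from 2.57 and 2.10 FPKM to 1.35 and 1.13 (-0.91 ± 0.21, edgeR adjusted p = 0.0234). The Ifit proteins bind foreign RNA. Ifit2 was at 2.95 and 1.83 FPKM and then at 1.18 and 0.984 (-1.13 ± 0.29, edgeR adjusted p = 0.0309). Ifit1 and Ifit3 had larger changes with larger errors, -1.80 ± 0.61 and -1.73 ± 0.54, and did not pass (edgeR adjusted p = 0.0666 and 0.0549). The related gene Ifit3b, listed nearby as I830012O16Rik, fell by 2.64 ± 0.64 (edgeR adjusted p = 0.0267). Ifit3 and Ifit3b can share reads, and how such reads were assigned is not given in the sources used here. The separate values of Ifit3 are thus uncertain. Ifit1, with the ISRE shown above, was at 1.73 and 0.682 FPKM in innervated muscle, so that its 2 innervated libraries themselves differed by more than 2-fold.

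Oasl2, an oligoadenylate synthetase-like protein, was at 1.98 and 1.23 FPKM and after denervation at 0.805 and 0.275 (-1.49 ± 0.52, edgeR adjusted p = 0.0744). Rsad2, or viperin, makes an antiviral nucleotide, and its innervated levels of 2.67 and 0.974 FPKM overlapped the denervated levels of 0.735 and 0.983 (-1.08 ± 0.48, edgeR adjusted p = 0.133). Ifitm3 was at 113 and 64.2 FPKM after denervation, on either side of the innervated libraries, with a change of -0.08 ± 0.27 (edgeR adjusted p = 0.841). The most abundant gene of the set thus gave overlapping groups.

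Isg15, a ubiquitin-like protein that is coupled to other proteins, and Usp18, which removes it and dampens the type I receptor, both fell. Isg15 (chromosome 4, 155573532 to 155574927) was at 4.34 and 2.99 FPKM and then at 1.30 and 1.42 (-1.34 ± 0.39, edgeR adjusted p = 0.0448). Usp18 went from 1.31 and 0.792 FPKM to 0.316 and 0.322 (-1.66 ± 0.39, edgeR adjusted p = 0.0245). In both genes the denervated libraries lay closer to each other than the innervated ones. Ifih1, a sensor of long double-stranded RNA also known as MDA5, was at 1.07 and 1.13 FPKM and then at 0.537 and 0.291 (-1.38 ± 0.43, edgeR adjusted p = 0.0544). Zbp1, a sensor of Z-form nucleic acid, stood at -0.62 ± 0.48 (edgeR adjusted p = 0.355). Herc6, the mouse ligase for Isg15, was not tested, with 0.653 and 0.507 FPKM against 0.302 and 0.217.

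Parp9 and Dtx3l form a complex that modifies proteins with ADP-ribose and ubiquitin, and Parp14 transfers single ADP-ribose units. Parp14 went from 2.69 and 2.22 FPKM to 1.30 and 0.774 (-1.20 ± 0.31, edgeR adjusted p = 0.0319). Parp9 went from 4.71 and 3.73 FPKM to 2.62 and 2.38 (-0.71 ± 0.20, edgeR adjusted p = 0.0392). Dtx3l went from 4.06 and 3.06 FPKM to 2.16 and 1.40 and did not pass (-0.97 ± 0.31, edgeR adjusted p = 0.0579). The files list Parp9 and Dtx3l at the same locus (chromosome 16, 35926600 to 35972691), and fragments from overlapping stretches of the pair cannot be assigned with certainty.

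Rtp4, a receptor transporter protein, had the smallest adjusted p of the set. It was at 4.56 and 3.93 FPKM in innervated muscle and at 1.81 and 1.39 after denervation (-1.37 ± 0.27, edgeR adjusted p = 0.0146). Xaf1, which promotes cell death, went from 5.73 and 5.21 FPKM to 3.25 and 1.49 (-1.15 ± 0.46, edgeR adjusted p = 0.101). Ifi35 was at 17.3 and 18.2 FPKM and then at 12.8 and 6.73 (-0.77 ± 0.34, edgeR adjusted p = 0.127). Cxcl10, a chemokine that attracts T cells, was the only gene of the 30 with a change above 0. Its denervated levels of 1.18 and 1.31 FPKM overlapped the innervated 1.26 and 0.518 (0.51 ± 0.47, edgeR adjusted p = 0.437). Cxcl10 is listed at the same locus as Cxcl11 (chromosome 5, 92760866 to 92843653), which stood at -0.80 ± 0.49 (edgeR adjusted p = 0.255). How fragments were assigned between these neighbours is not given in the sources used here, so the separate values of Cxcl10 are uncertain. Ifi44, not tested, was at 0.473 and 0.386 FPKM and then at 0.132 and 0.0573.

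The interferons themselves were listed at or near 0. Of 18 interferon genes in the files, 15 were listed at 0 fragments in all 6 libraries. As with Acta1, a listed 0 in these files can be a failed estimate. Summed over the 2 libraries of a group, Ifng had 3 fragments in innervated muscle, 2 after denervation and 0 in the muscle labelled double knockout. Ifnz had 3, 0 and 3 fragments, and Ifnab had 1, in an innervated library. None reached the level for testing.

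Of the 8 receptor and kinase genes tested, 2 fell and 0 rose in denervated WT, against 14.3% and 14.4% of all genes. Jak2 fell by 1.09 ± 0.24 on the log2 scale, and Ifngr2, a chain of the interferon gamma receptor, fell by 0.65 ± 0.14 (edgeR adjusted p = 0.0204 and 0.0205). Ifngr1 stood at -0.50 ± 0.17 (edgeR adjusted p = 0.0666). The type I receptor chains Ifnar1 and Ifnar2 did not pass, at -0.05 ± 0.17 and 0.39 ± 0.18 (edgeR adjusted p = 0.831 and 0.148). Jak1 was at 23.6 and 24.3 FPKM and then at 25.3 and 26.6, and Tyk2 had overlapping groups at 4.38 and 4.22 against 5.14 and 2.60 FPKM. Il10rb did not pass (-0.59 ± 0.24, edgeR adjusted p = 0.108), and Il28ra, a receptor chain of the lambda interferons, was too low to test at 0.154 to 0.243 FPKM.

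Of 13 genes that sense nucleic acid upstream of interferon, 2 fell and 2 rose, close to the 14.3% and 14.4% of all genes that did. Mavs, the mitochondrial adaptor of the RNA sensors, went from 42.2 and 50.8 FPKM to 13.6 and 15.9 (-1.56 ± 0.17, edgeR adjusted p = 0.00361). The sensor gene Ddx58 fell by 1.17 ± 0.32 (edgeR adjusted p = 0.0381). The kinase Tbk1 and the adaptor Myd88 rose, by 0.64 ± 0.16 and 0.65 ± 0.18 (edgeR adjusted p = 0.0316 and 0.0394). Of 10 negative regulators 1 rose and 1 fell, against the same shares of all genes. The phosphatase Ptpn2 rose by 0.75 ± 0.16 and Pias1 fell by 0.56 ± 0.16 (edgeR adjusted p = 0.0177 and 0.0440). Socs3, an inhibitor of cytokine receptors named after its value was seen, was at 1.11 ± 0.34 with an edgeR adjusted p of 0.0504, above the threshold.

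A wider list of 45 tested interferon-inducible genes outside the set gave 14 that fell and 1 that rose, with a median log2 change of -0.80. Among all genes 14.3% fell and 14.4% rose. The GTPase genes Tgtp2, Gvin1 and Gbp6 fell by 2.09 ± 0.30, 1.58 ± 0.26 and 1.31 ± 0.25, and the checkpoint ligand gene Cd274 fell by 1.82 ± 0.26 (edgeR adjusted p = 0.0063, 0.00925, 0.0128 and 0.00651). Gbp8, named because it was the only riser, was at 0.573 and 0.519 FPKM in innervated muscle and at 5.04 and 1.08 after denervation (2.53 ± 0.69, edgeR adjusted p = 0.0379). The immunoproteasome genes Psmb8 and Psmb9, picked from the list after their values were seen, fell by 0.94 ± 0.24 and 1.52 ± 0.37 (edgeR adjusted p = 0.0319 and 0.0267).

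Lists of cell type markers gave the following counts in the same fit, where 14.3% of all genes fell and 14.4% rose. Of 12 endothelial markers, 9 fell and 0 rose, with a median log2 change of -1.05, and their summed level went from 211 and 251 FPKM to 107 and 98.3. Kdr, a receptor for vascular growth factor, went from 10.9 and 12.0 FPKM to 2.94 and 3.17. Of 7 mural cell markers 5 fell (median -0.98, summed FPKM 189 and 200 against 111 and 83.5), and of 7 fibro-adipogenic markers 2 fell (median -0.78, summed 914 and 699 against 556 and 378). Dcn alone, at 453 and 385 against 289 and 269 FPKM, made up a large part of that last sum. Only 4 of these 7 markers had both denervated libraries below both innervated ones. Pdgfra did not pass and its groups overlapped (-0.17 ± 0.26, edgeR adjusted p = 0.639). Of 6 Schwann cell markers 4 fell (median -1.12), and of 9 soleus fibre markers 7 fell (median -1.67). No tested marker of the immune lists fell. Of 13 macrophage and monocyte markers 1 rose, Cd68 (1.58 ± 0.28, edgeR adjusted p = 0.0111), the list median was 0.45, and the summed level was 242 and 135 against 280 and 218 FPKM. Lyz2 alone, at 172 and 93.0 against 180 and 139 FPKM, made up most of that sum, and its groups overlapped. Of 4 neutrophil and 4 dendritic cell markers, S100a8 and Itgax rose, and S100a8 alone, at 2.16 and 5.72 against 25.2 and 57.9 FPKM, made up most of the summed neutrophil level of 31.0 and 74.0 FPKM after denervation (5.69 and 13.9 before). No lymphocyte or NK cell marker was high enough to test, at a summed 0.400 to 1.57 FPKM over 11 genes in all 6 libraries. The part of these cell types in the lower interferon response genes was not tested.

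**Figure D3:**
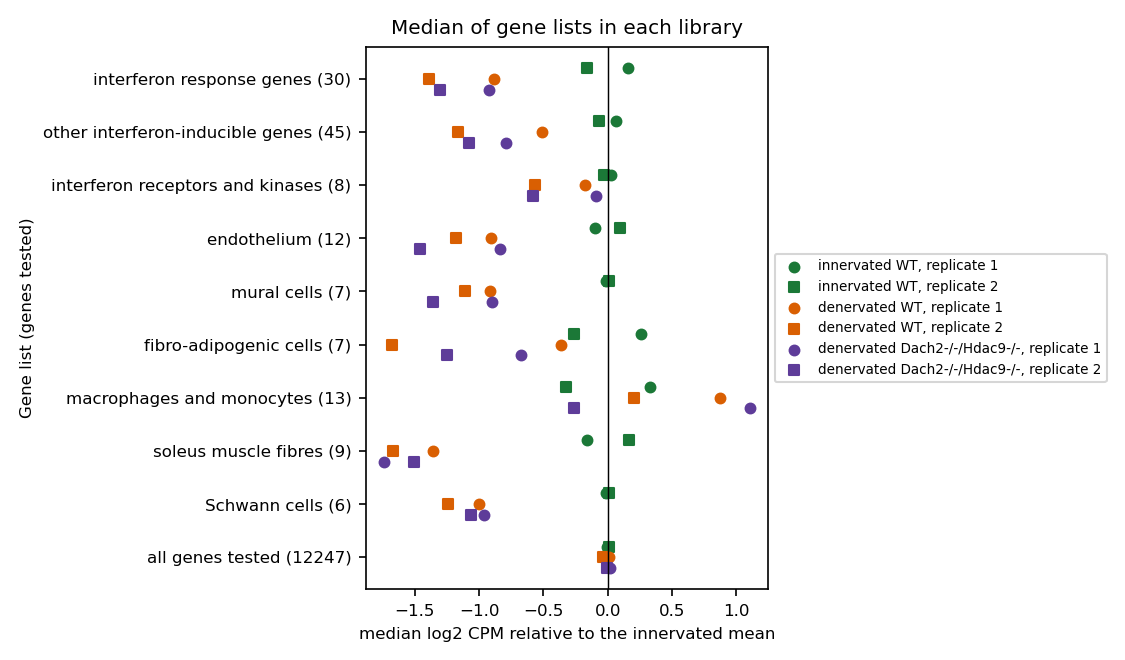
Median log2 CPM relative to the innervated mean (horizontal) of the genes tested in each list (vertical), with 1 point per library. The interferon response set lies at -0.88 and -1.39 in the denervated WT libraries, the endothelial markers lie at -0.91 and -1.18, and the macrophage markers lie at 0.87 and 0.21. In the innervated libraries the macrophage markers lie at 0.33 and -0.33, so those 2 groups overlap.

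The labels carry 2 runs of consecutive sample numbers, each with 1 library of every group, and the labels do not say what the runs are. The median difference between denervated and innervated WT was -0.98 within the first run and -1.27 within the second. A difference below 0 was seen in both runs for 27 of 30 genes, and for 4992 of all 12247. The exceptions were Ifitm3 (0.34 and -0.61), Rsad2 (-1.86 and 0.04) and Cxcl10 (-0.06 and 1.38).

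**Figure D4:**
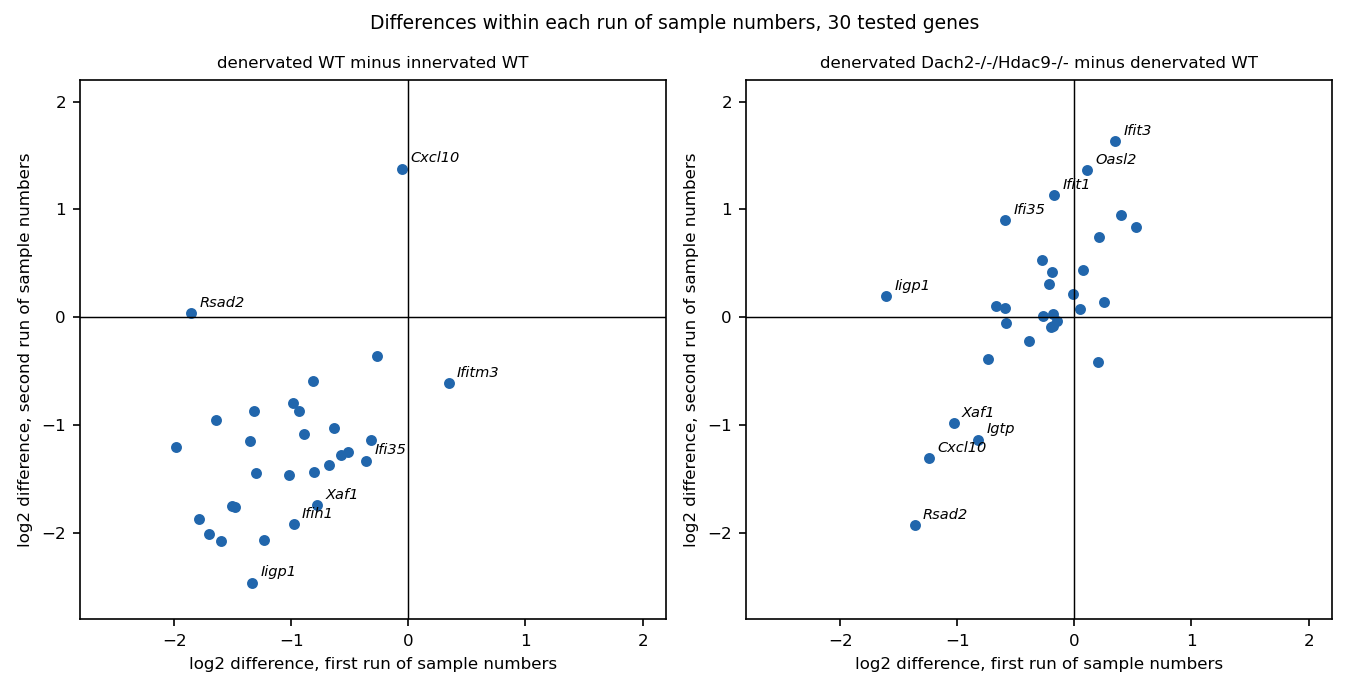
Log2 difference within the first run of sample numbers (horizontal) against that within the second (vertical) for the 30 tested genes, 1 point per gene and 1 panel per comparison. Denervated against innervated WT, 27 of 30 points are below 0 in both runs, whereas labelled double knockout against WT, both denervated, 10 of 30 are (all genes: 4992 and 3455 of 12247).

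The second comparison asks whether the denervated muscle labelled double knockout differed from denervated WT. By edgeR's quasi-likelihood test 0 of 30 genes fell and 0 rose, and among all genes 0.0163% fell and 0.0245% rose, 5 genes altogether. At an unadjusted p below 0.05, 3 of 30 were lower and 0 higher, against 3.45% and 2.65% of all genes. DESeq2 called 1 of 30, Igtp, and limma on log2(FPKM + 0.5) called 0. The median change was -0.05, against -0.02 over all genes, with 16 changes below 0, against 53.6% of all genes, and 14 above. Both labelled knockout libraries were below both WT libraries for 6 genes and above for 3, against 14.4% and 14.2% of all genes. Within the runs the median was -0.19 with 21 of 30 below 0 in the first, and 0.10 with 11 of 30 below 0 in the second. A test that is not passed does not show equal levels in the 2 groups.

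Igtp was at 3.31 and 3.37 FPKM in denervated WT and at 1.88 and 1.53 in the denervated muscle labelled double knockout. The groups were apart and the log2 change was -0.97 ± 0.21, with an unadjusted p of 0.00257 and an edgeR adjusted p of 0.335. The DESeq2 adjusted p was 0.00816, and over the alternatives tried for Igtp it ranged from 0.00816 to 0.984. Rsad2 went from 0.735 and 0.983 FPKM to 0.294 and 0.265 (-1.66 ± 0.51, edgeR adjusted p = 0.583). Cxcl10 went from 1.18 and 1.31 FPKM to 0.495 and 0.522 (-1.29 ± 0.48, edgeR adjusted p = 0.757). Each of these 3 genes had both labelled knockout libraries below both WT libraries, as had Ifit2, Irgm1 and Parp9 by smaller differences.

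Ifit3, Irf7 and Bst2 lay in the other direction, with both labelled knockout libraries above both WT libraries. Ifit3 was at 1.04 and 0.369 FPKM in denervated WT and at 1.35 and 1.20 in the labelled knockout (0.80 ± 0.54, edgeR adjusted p = 0.968). Irf7 was at 1.20 and 0.711 FPKM and at 1.69 and 1.24 (0.64 ± 0.37, edgeR adjusted p = 0.949). Bst2 was at 9.69 and 5.82 FPKM and at 11.0 and 9.47 (0.43 ± 0.28, edgeR adjusted p = 0.968). None of the 3 passed the test, and the separate values of Ifit3 are uncertain because of reads it can share with Ifit3b.

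By role, again with no gene called, all 6 GTPases had a change below 0, with a median of -0.48, and within the runs that median was -0.70 in the first and 0.02 in the second. The 4 other genes had a median of -0.58, with 3 of 4 below 0. The direct antiviral genes had a median of 0.17, the sensor and conjugation genes 0.15, the ADP-ribosylation genes 0.06 and the transcription factors 0.04. The summed GTPase level, given without a test, was 52.1 and 42.7 FPKM for innervated WT, 26.8 and 18.3 for denervated WT, and 15.9 and 16.4 for the labelled knockout. Of the pathway lists and the cell type lists, none had a gene called in this comparison. Of the 4 tested neutrophil markers 2 had a change below 0, with a list median of -0.47, and S100a8 was at 86.1 and 119 FPKM against 25.2 and 57.9 (1.27 ± 0.50, edgeR adjusted p = 0.782). The part of such cells in the values above was not tested.

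The third comparison sets denervated muscle labelled double knockout against innervated WT. Genotype and denervation both differ here and cannot be told apart, and the innervated libraries are those of the first comparison. Of 30 genes, 15 fell and 0 rose (edgeR adjusted p below 0.05), against 16.2% and 15.2% of all genes. The median change was -1.09, all 30 changes were below 0, against 49.4% of all genes, and both labelled knockout libraries were below both innervated ones for 27 genes, against 38.1% of all genes. The count was 1 without innervated replicate 1, 5 without innervated replicate 2, 4 without labelled knockout replicate 1, 1 without labelled knockout replicate 2 and 23 without either denervated WT library. The share of all genes that fell was 4.79%, 3.4%, 9.06%, 5.12%, and 23.0% and 22.8% in the same order. Without labelled knockout replicate 2 the gene called was Igtp.

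All 6 GTPases fell in this comparison, with a median change of -2.02. Iigp1 was at 1.65 and 2.16 FPKM in the labelled knockout against 11.9 and 9.92 in innervated WT, a 6.06-fold fall (log2 -2.60 ± 0.46, edgeR adjusted p = 0.00912). Irgm2 at 1.90 and 1.37 FPKM and Gbp3 at 0.896 and 0.777 fell by 2.19 ± 0.35 and 2.18 ± 0.40 on the log2 scale (edgeR adjusted p = 0.00698 and 0.0106). Igtp fell by 1.87 ± 0.21 (edgeR adjusted p = 0.00271), the smallest adjusted p of the set. Gbp2 fell by 1.38 ± 0.34 and Irgm1 by 0.63 ± 0.18 (edgeR adjusted p = 0.0268 and 0.0444). The joint entry of Ifi47 and Olfr56 fell by 1.10 ± 0.29 (edgeR adjusted p = 0.0319).

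Rsad2 had the largest fall of the set, 6.70-fold, from 2.67 and 0.974 FPKM to 0.294 and 0.265 (log2 -2.74 ± 0.52, edgeR adjusted p = 0.0114). Xaf1 fell 4.52-fold to 1.61 and 0.763 FPKM (-2.18 ± 0.47, edgeR adjusted p = 0.0177). The other genes that fell were Usp18, Rtp4, Ifit2, Irf1, Parp14, Samd9l and Parp9, by 1.75-fold to 3.33-fold. Ifitm3 and Zbp1 had overlapping groups and changes of -0.02 ± 0.27 and -0.04 ± 0.47. Among the pathway genes, 3 of 8 receptor and kinase genes fell, Jak2, Ifngr2 and Ifngr1, and 16 of the 45 wider interferon-inducible genes fell. Of all genes, 16.2% fell in this comparison. Endothelial markers summed to 118 and 76.9 FPKM in the labelled knockout, with 10 of 12 lower, and macrophage markers to 271 and 155. Their part in the lower levels was not tested.

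Against innervated WT, 11 genes fell in both denervated groups: Gbp3, Ifit2, Igtp, Iigp1, Irf1, Irgm2, Parp14, Parp9, Rtp4, Samd9l and Usp18. A further 3 passed in denervated WT alone (Bst2, Irf7 and Isg15) and 4 in the labelled knockout alone (Gbp2, Irgm1, Rsad2 and Xaf1). Neither denervated group passed for the other 12. These 2 comparisons share their control libraries, and for none of the 7 genes that passed in a single group did the test between the denervated groups pass. By mean level, 15 genes ran from innervated WT through denervated WT to the labelled knockout, 14 had denervated WT lowest, and Cxcl10 was highest in denervated WT. Of all genes, 14.3% fell in denervated WT and 16.2% in the labelled knockout. How many of all genes fell in both, or followed each order of means, was not counted, so these counts have no background share.

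The 2 libraries of a group differed in the same direction across the set. Replicate 1 lay above replicate 2 for 27 of 30 genes among the innervated libraries, 25 of 30 among the denervated WT libraries and 24 of 30 among those labelled double knockout. Over all 12247 genes tested, replicate 1 was the higher for 5759, 6221 and 6096 in the same order. The median difference on the log2 CPM scale was 0.32, 0.74 and 0.19, while over all genes tested it lay between -0.014 and 0.011. The gap was widest in denervated WT, where it ran from -0.43 to 1.53 and exceeded 1 for 6 genes. Over all 12247 genes it exceeded 1 in either direction for 1330. Denervated WT replicate 2 was the lowest of all 6 libraries for 16 of the 30 genes, which was not counted over all genes. In that group fibro-adipogenic markers had a median difference of 1.34 and macrophage markers 0.83, endothelial markers 0.12 and neutrophil markers -1.29. The part of those cells in the difference between the libraries was not tested.

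**Figure D5:**
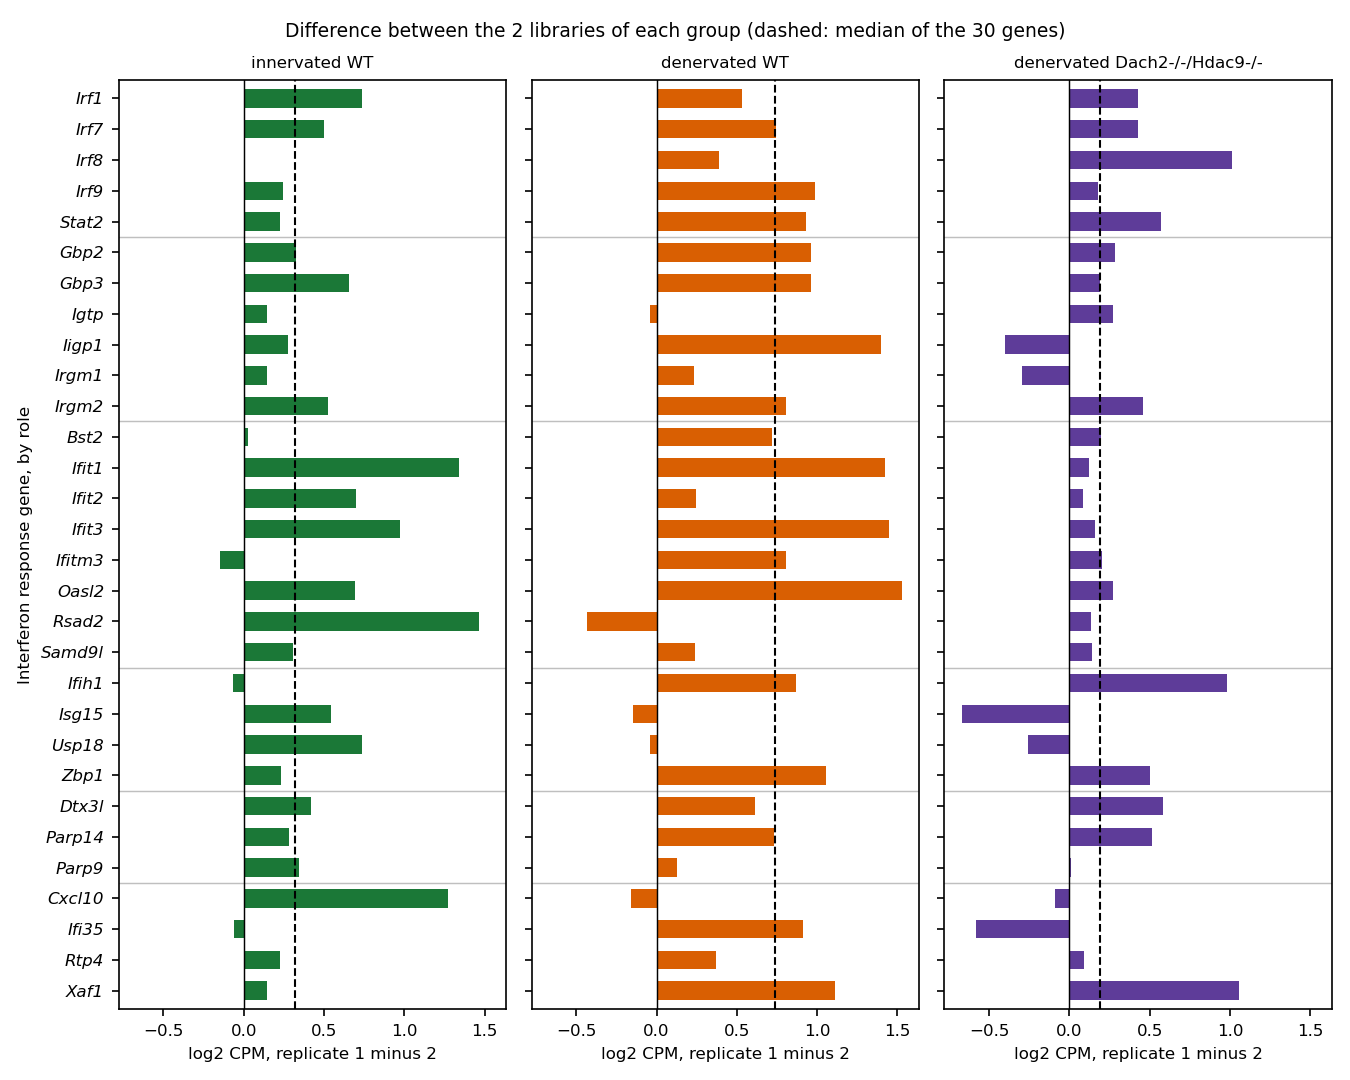
Log2 CPM of replicate 1 minus replicate 2 (horizontal) for each of the 30 tested genes (vertical, by role), with 1 panel per group and a dashed line at the group's median. Most bars point to the right, and the medians are 0.32 for innervated WT, 0.74 for denervated WT and 0.19 for the muscle labelled double knockout.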

How the data were processed

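Each of the 6 libraries has 1 deposited table of 65415 lines in which genes recur 3 times, and 21792 distinct lines were kept. The submitters' processing notes name mm9, Cuffdiff 2.0.2, TopHat2 2.0.3, Bowtie2 2.0.0.7, Trim Galore 0.2.1 and CASAVA 1.8.2. The sources used here give no role for these tools, no gene annotation and no strand. Per the file headers the authors give 3 deposited values a gene: FPKM, an externally scaled fragment signal, and raw fragments, which are estimated counts and not always whole. The scaled signal was used only to check the scaling of the libraries. Repeated symbols (144) were summed.

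Groups were read from the titles. Estimated counts were rounded and tested with edgeR 4.0.16 (quasi-likelihood, TMM scaling, two-sided) in R 4.3.3, with the 3 group means of all 6 libraries in 1 fit and 3 residual degrees of freedom. Genes with a mean FPKM of at least 0.5 were tested (12247), p-values were adjusted by Benjamini-Hochberg over all of them, and adjusted p below 0.05 was called. Errors are standard errors derived from the F statistic. The alternatives were DESeq2 1.42.0, limma 3.58.1 on log2(FPKM + 0.5) and log2(FPKM + 1), 2 other scalings, 2 other filters, fits of 4 libraries, a block and the left-out libraries. The main edgeR fit was tested on simulated data with a common spread for all genes. The alternatives were not tested in that way. The genes, their roles, the other lists and the promoter motifs were chosen with earlier results of these data known. Every gene of the set is named, and of the other lists up to 4 called genes of smallest p in each comparison, plus the interferons, their receptors and the kinases. Named outside that rule, some after their values were seen, were Socs3, Gbp8, Psmb8, Psmb9, Lyz2, Cxcl11, Ifit3b, Myh7, Tnnt1 and Acta1. Positions are mm9 as the files list them.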

Additional observations from a re-analysis of the deposited data

How the results depend on the processing

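In the comparison of denervated with innervated WT, where 14 of 30 genes fell and 14.3% of all genes, DESeq2 gave 21 of 30 (18.4% of all genes), no filter 20 of 32 (10.8%), limma 17 and 16 (16.6% and 16.7%), the other scalings 14 and 13 (14.3% and 13.9%) and the fit of 4 libraries 10 (12.0%), all lower. A filter at a mean of 2 FPKM left 16 genes and gave 8 (16.1%), and a replicate block by run of sample numbers gave 23 (19.0%), with all 14 genes among them. The labels give no replicate numbers, and nothing in them says that a run marks a shared day or litter. Without single libraries the count ran from 0 to 24, and without denervated WT replicate 2 it was 5 (Gbp3, Igtp, Iigp1, Irgm2 and Rtp4). Between the denervated groups DESeq2 called 1 gene, Igtp, among 181 genes overall. For the labelled knockout against innervated WT, where 15 fell, the fit of 4 libraries gave 24 (23.0% of all genes, against 16.2%), and leaving out single libraries gave 1 to 23. There the median log2 change of -1.09 was -0.79 and -0.66 with limma on log2(FPKM + 0.5) and log2(FPKM + 1), and ran from -1.32 to -0.87 without single libraries. Upper-quartile scaling moved the difference between the denervated WT libraries to 0.13 over all genes and 0.86 over the set.

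No change that passed the test turned in sign. Denervated against innervated WT, Ifitm3 ran from -0.55 to 0.27 without single libraries. For the labelled knockout against innervated WT the ranges were -1.27 to 0.025 for Cxcl10, -0.31 to 0.20 for Zbp1 and -0.13 to 0.077 for Ifitm3, and with no filter Zbp1 was at 0.024 and Ifitm3 at 0.04. Between the denervated groups Irf8 was at 0.007 with upper-quartile scaling. Without single libraries that comparison ranged from -0.73 to 0.24 for Gbp2, -0.76 to 0.21 for Gbp3, -1.39 to 0.014 for Iigp1, -0.40 to 0.14 for Irf1, -0.63 to 0.38 for Irf8, -0.36 to 0.63 for Irf9 and -0.18 to 0.76 for Stat2. It ranged from -0.23 to 1.21 for Ifit1, -0.021 to 1.52 for Oasl2, -0.29 to 0.53 for Ifitm3, -0.37 to 0.72 for Ifih1, -0.29 to 0.39 for Isg15 and -0.21 to 0.055 for Usp18. It ranged from -0.27 to 0.41 for Dtx3l, -0.24 to 0.50 for Parp14, -0.27 to 0.64 for Ifi35 and -0.31 to 0.062 for Rtp4. The cause of these changes was not tested. With 2 libraries a group, a library left alone is assumed to vary like the other groups.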
